A study of Homo sapiens with 5 samples.

Results

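Genes that are widely used to mark cancer stem-like cells were examined in gefitinib-resistant lung cancer cells and in the cells they came from. The list holds 10 genes, namely CD44, CD24, PROM1, SOX2, SOX4, SOX9, KLF4, NANOG, POU5F1 and BMI1, and each was found by its symbol in the deposited table of 37181 genes or assembled loci, where each has a single entry. HCC827 is a human lung adenocarcinoma cell line whose EGFR carries a deletion in exon 19, and both groups of libraries share this genotype. HCC827/GR cells were derived from HCC827 by raising the dose of gefitinib, an inhibitor of the EGFR kinase, over more than 6 months, and they are gefitinib resistant, whereas parental HCC827 cells are gefitinib sensitive. RNA sequencing gave 3 libraries of HCC827/GR cells (replicates 1, 2 and 3) and 2 libraries of HCC827 cells (replicates 2 and 3). Nothing in the descriptions says that the libraries of a group came from separate cultures, or whether HCC827/GR is a clone, so the p-values below measure only the spread between these libraries, and bulk RNA cannot tell fewer cells that express a gene from less RNA per cell.

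Cancer stem-like cells are cells of a tumor that renew themselves and give rise to the other tumor cells. They are recognized by surface proteins and by transcription factors borrowed from embryonic and tissue stem cells. CD44, the receptor for the matrix sugar hyaluronan, CD24, a small mucin-like protein anchored in the membrane, and PROM1, known as CD133, are surface markers. SOX2, POU5F1 (OCT4), NANOG and KLF4 belong to the network that keeps embryonic stem cells pluripotent, SOX4 and SOX9 are relatives of SOX2 that act in progenitor cells of epithelia, and BMI1 is a subunit of the Polycomb repressive complex that silences inhibitors of the cell cycle.

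Values are given as FPKM, a unit scaled to library size and to transcript length, so that levels can be set side by side between genes. A log2 change is the mean of log2(FPKM + 1) in HCC827/GR cells minus that in HCC827 cells, and because 1 FPKM is added it comes out too small for genes with low values. SE stands for the standard error of that change. The table gives no read counts, but for entries with a single annotated transcript the low FPKM values, multiplied by transcript length, fell on steps. The most common step within a range set beforehand was read as 1 read, so that range also bounded the depths. This step implied about 53600000 and 47600000 reads behind HCC827 replicates 2 and 3. For HCC827/GR replicates 1, 2 and 3 it implied about 51600000, 54200000 and 64900000 reads. Between 57.5% and 61.6% of such entries with 1 to 4 steps lay within 5% of a whole number, so these depths are estimates. The sample descriptions speak of single-end and the methods of paired-end sequencing, and if the latter holds a step may be a read pair, so the read numbers given here and below count steps of either kind.

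Of the 10 genes, 6 reached a mean of 0.5 FPKM across the 5 libraries and entered the test, which was limma's moderated test across all 16189 entries that passed this filter. In each of the 6, both groups had a mean above the filter. A gene was called when it changed 2-fold or more in either direction with an unadjusted p under 0.05. By this rule none was higher in HCC827/GR cells and KLF4 was lower. Among all entries tested, 2.96% were called higher and 3.97% lower, 6.94% in all. After Benjamini-Hochberg adjustment over all entries, 0 of the 6 had an adjusted p under 0.05 in limma, whereas 2.43% of all entries were 2-fold higher and 3.09% were 2-fold lower with an adjusted p under 0.05, 5.52% together, and 1775 of the 16189 reached that adjusted p at any size of change. In Ballgown's model, run as an alternative, 0 of the 6 were called, where 2.42% of all entries were called higher and 2.89% lower, 5.31% in all. At an unadjusted p under 0.05 and any size of change, limma gave 2 genes, KLF4 and CD44, where the share of all entries was 27.2%, and Ballgown's model gave 1, CD24, where that share was 18.2%. The median log2 change of the 6 genes was 0.08, beside 0.0014 for all entries.

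**Figure D1:**
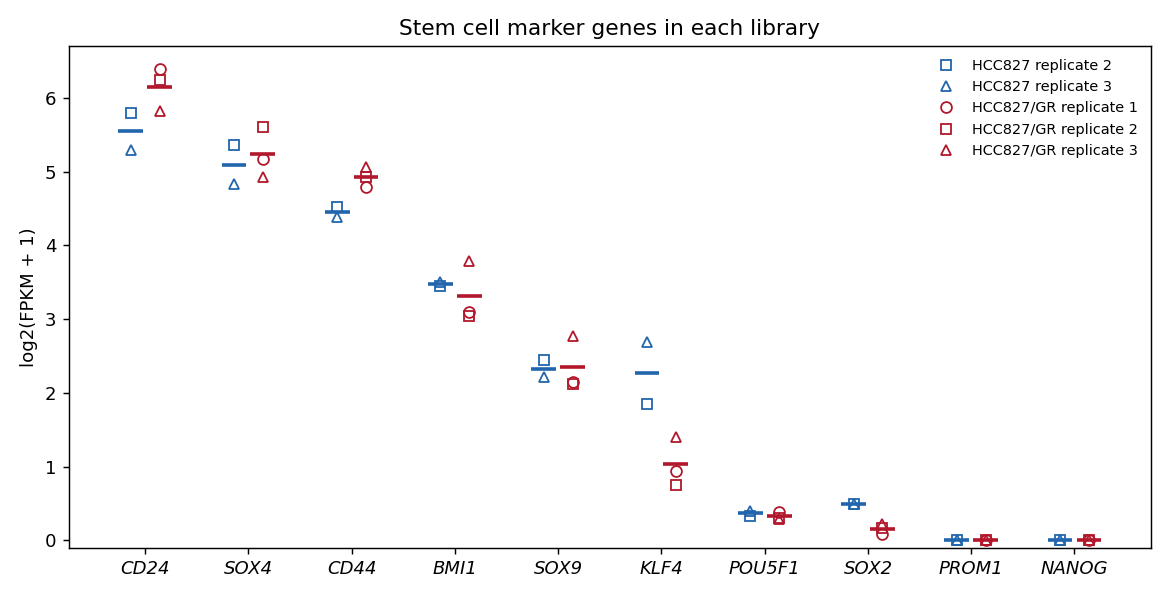
Expression of the 10 stem cell marker genes, ordered by mean FPKM, as log2(FPKM + 1) in each library (points) with the group mean (bars), HCC827 in blue and HCC827/GR in red. CD44 and CD24 were above the HCC827 values in every HCC827/GR library, KLF4 and SOX2 were below them, and the other genes overlapped.

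The levels of the 10 genes ran from an entry listed at 0 to levels among the highest in the table. CD24 had the highest mean over the 5 libraries (61.2 FPKM, above 99.2% of all entries), followed by SOX4 (36.0 FPKM), CD44 (26.1 FPKM), BMI1 (9.59 FPKM), SOX9 (4.13 FPKM) and KLF4 (2.27 FPKM). POU5F1 (0.268 FPKM), SOX2 (0.232 FPKM) and PROM1 (0.0029 FPKM) stayed below the filter and NANOG was listed at 0 in all 5 libraries. The order CD24, SOX4 held in 5 of 5 libraries, as did CD44 above BMI1, BMI1 above SOX9 and KLF4 above POU5F1. Neighbors that were not ordered the same way in every library were SOX4 and CD44 (SOX4 higher in 4 of 5) and SOX9 and KLF4 (SOX9 higher in 4 of 5). SOX2 was above POU5F1 in both HCC827 libraries and below it in the 3 HCC827/GR libraries.

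For 3 of the 6 genes tested, CD44, CD24 and KLF4, the HCC827/GR libraries all lay on 1 side of the HCC827 libraries, as they did for 46.3% of all entries tested. The same held for SOX2, which was below the filter and not tested. To show where these 4 genes begin, the 250 bases before their RefSeq start on GRCh38.p14 are given 5′ to 3′ along the gene's strand, with capitals marking the CACCC box that KLF proteins can bind, on either strand (GGGTG on the other). RefSeq windows were found for 8 of the 10 genes, and CD24, which has 3 RefSeq starts, is shown for the one closest to its GENCODE start. The windows of CD44 and KLF4 lie inside the GENCODE gene spans given below, because their RefSeq starts lie downstream of the GENCODE ones.
CD44 (chr11:35138921-35139170, plus strand): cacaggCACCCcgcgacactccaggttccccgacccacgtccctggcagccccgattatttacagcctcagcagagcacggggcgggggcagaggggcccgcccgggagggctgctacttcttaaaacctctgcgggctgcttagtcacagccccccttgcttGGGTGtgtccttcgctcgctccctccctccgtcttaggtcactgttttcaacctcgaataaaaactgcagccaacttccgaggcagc
CD24 (chr6:106975628-106975877, minus strand): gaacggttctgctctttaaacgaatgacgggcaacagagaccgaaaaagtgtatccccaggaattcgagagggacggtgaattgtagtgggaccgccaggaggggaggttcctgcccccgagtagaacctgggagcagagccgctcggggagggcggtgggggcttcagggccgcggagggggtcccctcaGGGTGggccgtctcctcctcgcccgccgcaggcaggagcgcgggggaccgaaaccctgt
SOX2 (chr3:181711675-181711924, plus strand): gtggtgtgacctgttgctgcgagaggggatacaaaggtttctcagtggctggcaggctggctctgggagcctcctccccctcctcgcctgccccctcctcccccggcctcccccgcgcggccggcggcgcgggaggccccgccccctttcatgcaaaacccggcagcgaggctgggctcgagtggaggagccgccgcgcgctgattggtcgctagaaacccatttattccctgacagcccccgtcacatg
KLF4 (chr9:107489770-107490019, minus strand): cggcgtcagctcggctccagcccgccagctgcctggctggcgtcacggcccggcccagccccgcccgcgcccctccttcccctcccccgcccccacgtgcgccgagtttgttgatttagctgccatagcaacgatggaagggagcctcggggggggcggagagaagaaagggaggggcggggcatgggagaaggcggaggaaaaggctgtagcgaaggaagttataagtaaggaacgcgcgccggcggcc
The CACCC box was found at 2 places in the window of CD44 and 1 in that of CD24. It was at none in those of SOX2 or KLF4, while 54.7% of all 35116 promoter windows of this length held it. Neither the SOX core AACAAT (in 8.98% of windows) nor the octamer ATTTGCAT that POU factors bind (in 1.63%) was present in the 4 windows on either strand. These matches describe the letters only, and no binding was measured.

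CD44 lies on chromosome 11 of GRCh38 from 35138870 to 35232402. In HCC827 cells it had 21.9 and 19.9 FPKM, and in HCC827/GR cells 26.7, 29.45 and 32.4 FPKM. Every HCC827/GR library was therefore above both HCC827 libraries, as was the case in this direction for 22.8% of all entries tested, and the means were 29.5 ± 2.83 FPKM (SD, n = 3) and 20.9 ± 1.45 FPKM (SD, n = 2), a ratio of 1.41. The log2 change of 0.48 (SE 0.12) had an unadjusted p of 0.0112 and an adjusted p of 0.0757 from limma, so the difference did not pass the adjustment and fell short of a 2-fold change. It lay between 0.41 and 0.54 when single libraries were left out. CD44-AS1, an antisense RNA of the locus that was looked up after the values of CD44 were seen, had 2.55 and 2.29 FPKM in HCC827 cells and 3.54, 3.23 and 3.77 FPKM in HCC827/GR cells. The strand setting of the libraries is not given in the sources used here, so reads of CD44 and of CD44-AS1 in their shared stretch cannot be told apart.

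The CD44 entry sums 46 transcripts, of which 38 are Ensembl transcripts and 8 were assembled from the reads. CD44 is known for a block of variable exons whose inclusion depends on the epithelial splicing factors ESRP1 and ESRP2. The gene table holds a single value for all of these transcripts, so the share of each CD44 form was not analysed here.

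CD24, on chromosome 6 from 106969831 to 106975627, had 54.7 and 38.4 FPKM in HCC827 cells and 82.6, 74.7 and 55.5 FPKM in HCC827/GR cells. The groups did not overlap, but the lowest HCC827/GR library, replicate 3, was close to the higher HCC827 library. The means were 70.9 ± 13.9 FPKM (SD, n = 3) and 46.5 ± 11.6 FPKM (SD, n = 2), a ratio of 1.52, and the log2 change of 0.60 (SE 0.24) had an unadjusted p of 0.0577 and an adjusted p of 0.200 from limma. It ran from 0.35 without HCC827 replicate 3 to 0.85 without HCC827 replicate 2.

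A high level of CD44 with a low level of CD24 is a surface pattern often used to sort stem-like cells of carcinomas, so the ratio of the pair was taken within each library. The log2 ratio of CD44 to CD24, with 1 FPKM added to each, was -1.28 and -0.92 in the HCC827 libraries and -1.59, -1.31 and -0.76 in HCC827/GR replicates 1, 2 and 3. CD24 was the higher of the pair in every library, and the groups overlapped fully, since HCC827/GR libraries held both the lowest and the highest ratio. The difference between the groups was -0.12 (-1.22 ± 0.42 (SD, n = 3) against -1.10 ± 0.26 (SD, n = 2), two-sided exact permutation test, p = 0.8, where 0.1 is the smallest p that 3 libraries against 2 allow). Its sign was not stable, as it became 0.06 without HCC827 replicate 3 and also without HCC827/GR replicate 1.

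**Figure D2:**
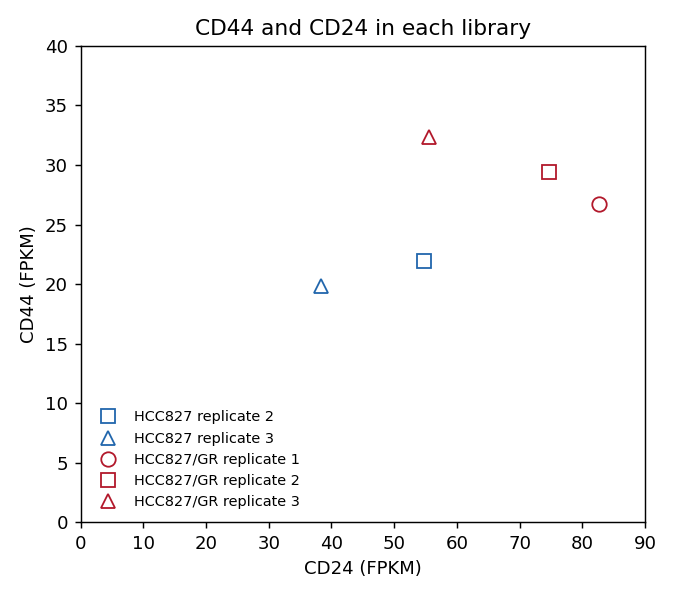
CD44 against CD24, both in FPKM, in each of the 5 libraries, with HCC827 in blue and HCC827/GR in red. The HCC827/GR libraries lie higher on both axes than the HCC827 libraries, and HCC827/GR replicate 3 has the highest CD44 and the lowest CD24 of its group.

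PROM1, the gene of CD133, lies on chromosome 4 from 15963076 to 16084378 and was barely detected. It had 0.0050 FPKM in HCC827 replicate 2, 0.0052 FPKM in HCC827/GR replicate 1 and 0.0041 FPKM in HCC827/GR replicate 3, and HCC827 replicate 3 and HCC827/GR replicate 2 listed it at 0. With the length of its listed transcript (4349 bases), these values correspond to about 1.16, 1.17 and 1.17 reads, that is about a single read in each library. No difference in PROM1 RNA was detectable at this depth.

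SOX2 is a single-exon gene on chromosome 3 from 181711924 to 181714436. Its level was 0.408 and 0.400 FPKM in HCC827 cells and 0.0617, 0.122 and 0.168 FPKM in HCC827/GR cells, so that each HCC827/GR library was below both HCC827 libraries. Over its 2513 bases this corresponds to about 55.0 and 47.9 reads against about 8.0, 16.7 and 27.5 reads. The means of 0.117 ± 0.0535 FPKM (SD, n = 3) and 0.404 ± 0.0055 FPKM (SD, n = 2) differed by a ratio of 3.44, lower in HCC827/GR cells. SOX2 did not reach the mean of 0.5 FPKM. With no filter on low values, limma gave a log2 change of -0.33 (SE 0.071, unadjusted p of 0.00712, adjusted p of 0.0974), which is small because 1 FPKM was added before the logarithm. SOX2-OT, the long non-coding RNA whose locus contains SOX2 and which was looked up after the values of SOX2 were seen, was at 0.0107 FPKM or less in every library.

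KLF4 changed most among the tested members. It lies on chromosome 9 from 107484852 to 107490482 and encodes a zinc finger factor that also drives differentiation and growth arrest in epithelia. KLF4 had 2.62 and 5.47 FPKM in HCC827 cells and 0.924, 0.681 and 1.65 FPKM in HCC827/GR cells. The groups did not overlap, as was the case in this direction for 23.4% of all entries tested, although the HCC827 libraries differed from each other by more than the HCC827/GR libraries did. The mean was 1.09 ± 0.505 FPKM (SD, n = 3) against 4.05 ± 2.02 FPKM (SD, n = 2), a ratio of 3.73, lower in HCC827/GR cells. The log2 change was -1.24 (SE 0.33, unadjusted p of 0.0141, adjusted p of 0.0874 from limma). Without HCC827 replicate 3, the library with the highest value, the log2 change was -0.82 (unadjusted p of 0.0697) and KLF4 was no longer called. The pseudogene KLF4P1, which was looked up after the values of KLF4 were seen, had between 0.124 and 0.362 FPKM, and reads shared with it were not measured.

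SOX4 and SOX9 showed no difference beyond the spread between libraries. SOX4, a single-exon gene on chromosome 6 from 21592768 to 21598619, had 39.98 and 27.5 FPKM in HCC827 cells and 35.1, 47.9 and 29.5 FPKM in HCC827/GR cells. The log2 change of 0.15 (SE 0.27) had an adjusted p of 0.782 from limma and was -0.12 without HCC827 replicate 3. SOX9, on chromosome 17 from 72121020 to 72126420, had 4.43 and 3.66 FPKM in HCC827 cells and 3.41, 3.35 and 5.81 FPKM in HCC827/GR cells, with a log2 change of 0.01 (SE 0.24) at an adjusted p of 0.977 from limma. Within HCC827/GR cells, SOX9 was highest in replicate 3, and without that library its log2 change was -0.20.

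POU5F1, on chromosome 6 from 31164337 to 31180731, had 0.257 and 0.319 FPKM in HCC827 cells and 0.310, 0.230 and 0.226 FPKM in HCC827/GR cells, and the groups overlapped. POU5F1 and NANOG have pseudogenes of nearly the same sequence, with which reads could have been shared. Of those looked up after the values of the members were seen, POU5F1P4 had between 0.310 and 0.659 FPKM, a level above that of POU5F1 in every library. POU5F1P3 had 0.225 FPKM or less and was below POU5F1 in every library. NANOGP6 had between 0.695 and 1.84 FPKM and NANOGP2 had 0.154 FPKM or less. NANOG itself, on chromosome 12 from 7787794 to 7799141, was listed at 0 throughout. Such sharing was not tested.

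BMI1 lies on chromosome 10 from 22321211 to 22331484, and its entry joins the transcripts of BMI1, of the neighboring COMMD3 and of their read-through COMMD3-BMI1, so its value is not that of BMI1 alone. The entry had 9.96 and 10.3 FPKM in HCC827 cells and 7.58, 7.27 and 12.9 FPKM in HCC827/GR cells. Replicate 3 of HCC827/GR was above, and replicates 1 and 2 below, both HCC827 libraries. Limma gave a log2 change of -0.16 (SE 0.26) at an adjusted p of 0.745. This change was -0.40 without HCC827/GR replicate 3 (adjusted p = 0.114), but -0.055 without HCC827/GR replicate 1 and -0.028 without HCC827/GR replicate 2.

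**Figure D3:**
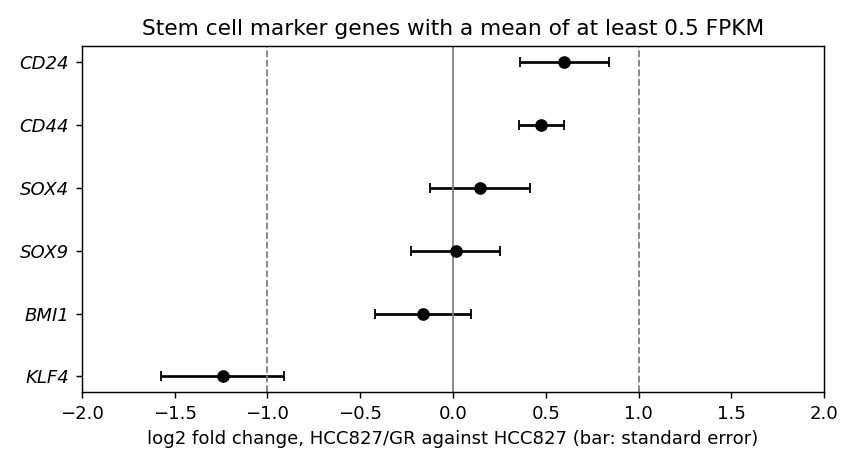
Log2 change between HCC827/GR and HCC827 (points) with its standard error (bars) for the 6 stem cell marker genes that passed the filter of 0.5 FPKM. Dashed lines mark a fold change of 2 in either direction, which KLF4 (-1.24) passed.

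Beside the 10 genes, lists of related genes were read from the same test. In limma, 15 genes of these lists and of the cell type markers passed a 2-fold change and an adjusted p under 0.05. Their adjusted p-values in Ballgown's model lay between 0.0902 (VCAN) and 0.297 (PCGF2), so none passed the adjustment there. The log2 changes of VCAN and PCGF2 in that model were 1.31 and 1.19. Among all 16189 entries, only 3 higher and 8 lower ones passed both the fold change and the adjusted p in Ballgown's model. Listed genes that changed less than 2-fold did not pass it either, as 0 genes of any list had an adjusted p under 0.05 in Ballgown's model. With so few entries of the whole table passing, this absence says little about the listed genes themselves. In a list of 26 other stem-like cell markers, 16 were tested, 8 were below the filter and 2 were not listed. Of the 16, 3 were called higher and 3 lower, with a median log2 change of 0.04, and 3 and 2 of these had an adjusted p under 0.05. The shares over all entries by the same rules were 2.96% and 3.97%, and 2.43% and 3.09% with the adjusted p. At an unadjusted p under 0.05 and any size of change, limma gave 12 of the 16, 6 higher and 6 lower. Ballgown's model gave 9 of the 16 at that p, 4 higher and 5 lower. The shares of all entries were 27.2% and 18.2%. Ballgown's model called 3 of the list higher and 4 lower, where 2.42% and 2.89% of all entries were. Among the genes called higher, TNFRSF19 and LRIG1 passed the filter only through HCC827/GR cells, where they are high. ALDH1A1, the aldehyde dehydrogenase whose activity is used to isolate stem-like cells, had 0.851 and 0.381 FPKM in HCC827 cells and 186.3, 300.7 and 76.4 FPKM in HCC827/GR cells. Its log2 change of 6.68 (SE 0.61, adjusted p = 0.00862 from limma) was the largest among the listed genes tested. The adjusted p was 0.0645 without HCC827 replicate 2 and 0.0628 without HCC827 replicate 3, with log2 changes of 6.89 and 6.47. Its relative ALDH1A3 had 13.5 and 16.3 FPKM against 8.76, 4.80 and 8.08 FPKM, a log2 change of -0.98 (adjusted p = 0.0900 from limma).

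LRIG1, a receptor antagonist that marks quiescent epithelial stem cells, had a log2 change of 1.22 (adjusted p = 0.0208) and TNFRSF19, the receptor TROY, of 2.40 (adjusted p = 0.00176, and 0.0968 in Ballgown's model), and both passed the filter through HCC827/GR cells alone, as did DCLK1, which was not called. The adjusted p of LRIG1 was between 0.0548 and 0.112 without any single library other than HCC827/GR replicate 3, and 0.0521 with no filter on low values. EPCAM, an adhesion protein of epithelia that is also used to sort stem-like cells, fell from 86.9 and 72.6 FPKM to 7.32, 10.8 and 8.53 FPKM, a log2 change of -3.04 (SE 0.19, adjusted p = 0.00349, and 0.171 in Ballgown's model). CD9, a tetraspanin, fell by 1.20 on the log2 scale (adjusted p = 0.0173, but 0.103 without HCC827 replicate 2, 0.0901 without HCC827 replicate 3 and 0.0695 without HCC827/GR replicate 1), and NT5E (CD73) was called lower by the unadjusted p only, with a log2 change of -2.78 (adjusted p = 0.0596). The drug pump ABCG2, used to define side-population cells, had 4.53 and 4.18 FPKM against 1.43, 1.39 and 2.70 FPKM, a log2 change of -0.95 (adjusted p = 0.0703). These p-values are from limma with Benjamini-Hochberg adjustment.

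Other factors of the pluripotency network were mostly not listed or below the filter. A symbol that is not listed has no value here, which differs from a value of 0. Of 24, 10 were not listed, 11 were below the filter and 3 were tested, and 0 of the 3 were called in either direction in limma or in Ballgown's model. At an unadjusted p under 0.05 and any size of change, limma gave 2 of the 3 and Ballgown's model 1. Over all entries, 6.94% and 5.31% were called in limma and in Ballgown's model and 27.2% and 18.2% had an unadjusted p under 0.05. SALL4, LIN28A and LIN28B stayed at or below 0.1396 FPKM in every library. NR5A2, an orphan nuclear receptor, was higher by 0.49 on the log2 scale (adjusted p = 0.0398 from limma, above 0.05 in Ballgown's model), below a 2-fold change. Among 16 other SOX genes, 3 were tested and 0 were called in limma or in Ballgown's model, with 1 and 0 at an unadjusted p under 0.05, beside the same shares of all entries (6.94% and 5.31% called, 27.2% and 18.2% at that p). SOX12, another single-exon gene, was listed at 0 in HCC827 replicate 2 and in HCC827/GR replicates 2 and 3 but had 8.06 FPKM in HCC827 replicate 3 and 12.5 FPKM in HCC827/GR replicate 1, so that the entry of a single-exon gene was at 0 in some libraries of a group and not in others. SOX2 and SOX4 had values above 0 in all 5 libraries.

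Among the other 16 KLF genes, 8 were tested, of which 1 was called higher and 1 lower, where 2.96% and 3.97% of all entries were. Ballgown's model called 0 higher and 1 lower, where the shares were 2.42% and 2.89%, and 1 of the 8 had an unadjusted p under 0.05 there and 4 in limma, where 18.2% and 27.2% of all entries did. KLF5, which like KLF4 acts in epithelial cells and in embryonic stem cells, had 13.9 and 21.4 FPKM in HCC827 cells and 5.59, 5.96 and 7.85 FPKM in HCC827/GR cells, and it fell by 1.30 on the log2 scale (adjusted p = 0.0355). Leaving out any single library raised its adjusted p above 0.05, to between 0.0626 and 0.115. KLF6 was called higher by the unadjusted p only, with 3.30 and 2.99 FPKM against 4.44, 12.8 and 11.2 FPKM and a log2 change of 1.23 (adjusted p = 0.160).

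All 28 genes of a Polycomb list, which holds the partners of BMI1, the PRC2 complex and the target genes CDKN2A and CDKN2B, were tested. Of these 2 were called higher and 0 lower in limma, and 0 in either direction in Ballgown's model, against 6.94% and 5.31% of all entries called in either direction. At an unadjusted p under 0.05 there were 8 of the 28 in limma and 5 in Ballgown's model, where the shares of all entries were 27.2% and 18.2%. The median log2 change was 0.0073. PCGF2, the closest relative of BMI1 in the same complex, had 4.38 and 5.69 FPKM in HCC827 cells and 14.6, 9.97 and 12.6 FPKM in HCC827/GR cells, a log2 change of 1.14 (SE 0.19, adjusted p = 0.0318 from limma). The adjusted p of PCGF2 was above 0.05 without either HCC827 library and without HCC827/GR replicate 1 or 3, the highest being 0.148. CBX2, a chromodomain subunit, was called by the unadjusted p only (log2 change of 1.04, adjusted p = 0.0768) and passed the filter through HCC827/GR cells alone. CDKN2A, which encodes cell cycle inhibitors that BMI1 is known to repress, fell by 0.66 on the log2 scale (adjusted p = 0.0248 in limma, above 0.05 in Ballgown's model), less than 2-fold.

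Ligands, partners and processing factors of CD44 formed a list of 23 genes, of which 14 were tested, 3 called higher and 1 lower, with a median log2 change of -0.057, where 2.96% and 3.97% of all entries were called. Ballgown's model called 2 higher and 1 lower, where the shares were 2.42% and 2.89%. At an unadjusted p under 0.05 and any size of change, limma gave 8 of the 14, 3 higher and 5 lower. Ballgown's model gave 6 at that p, 3 higher and 3 lower, where the shares of all entries were 27.2% and 18.2%. SPP1 (osteopontin), a secreted ligand of CD44, had 14.7 and 12.0 FPKM in HCC827 cells and 68.0, 108.7 and 59.8 FPKM in HCC827/GR cells, a log2 change of 2.43 (SE 0.29, adjusted p = 0.0137). Its adjusted p was 0.0833 without HCC827 replicate 2, 0.0890 without HCC827 replicate 3 and 0.0556 without HCC827/GR replicate 1. VCAN (versican), a proteoglycan that binds hyaluronan, rose by 1.30 (adjusted p = 0.004, and 0.0902 in Ballgown's model), and NF2 (merlin), which links CD44 to the cytoskeleton and restrains growth, by 1.04 (adjusted p = 0.0123, but 0.0647 without HCC827 replicate 2 and 0.0543 without HCC827/GR replicate 1). ESRP1 had 16.3 and 12.3 FPKM in HCC827 cells and between 0.0475 and 0.1002 FPKM in HCC827/GR cells. It fell by 3.83 on the log2 scale (SE 0.14, adjusted p = 0.00161, and 0.137 in Ballgown's model) and passed the filter through HCC827 cells alone. ESRP2 fell by 0.59 (adjusted p = 0.0245, above 0.05 in Ballgown's model). Among the hyaluronan synthases, HAS3 had 2.40 and 3.26 FPKM against 2.59, 0.635 and 4.26 FPKM, with overlapping groups (adjusted p = 0.787). HAS1 and HAS2 were below the filter and not tested. HAS2 had 0.225 and 0.230 FPKM in HCC827 cells and 0.0139, 0 and 0.0147 FPKM in HCC827/GR cells, without overlap, and HAS1 was at 0.0563 FPKM or less. These adjusted p-values are from limma.

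**Figure D4:**
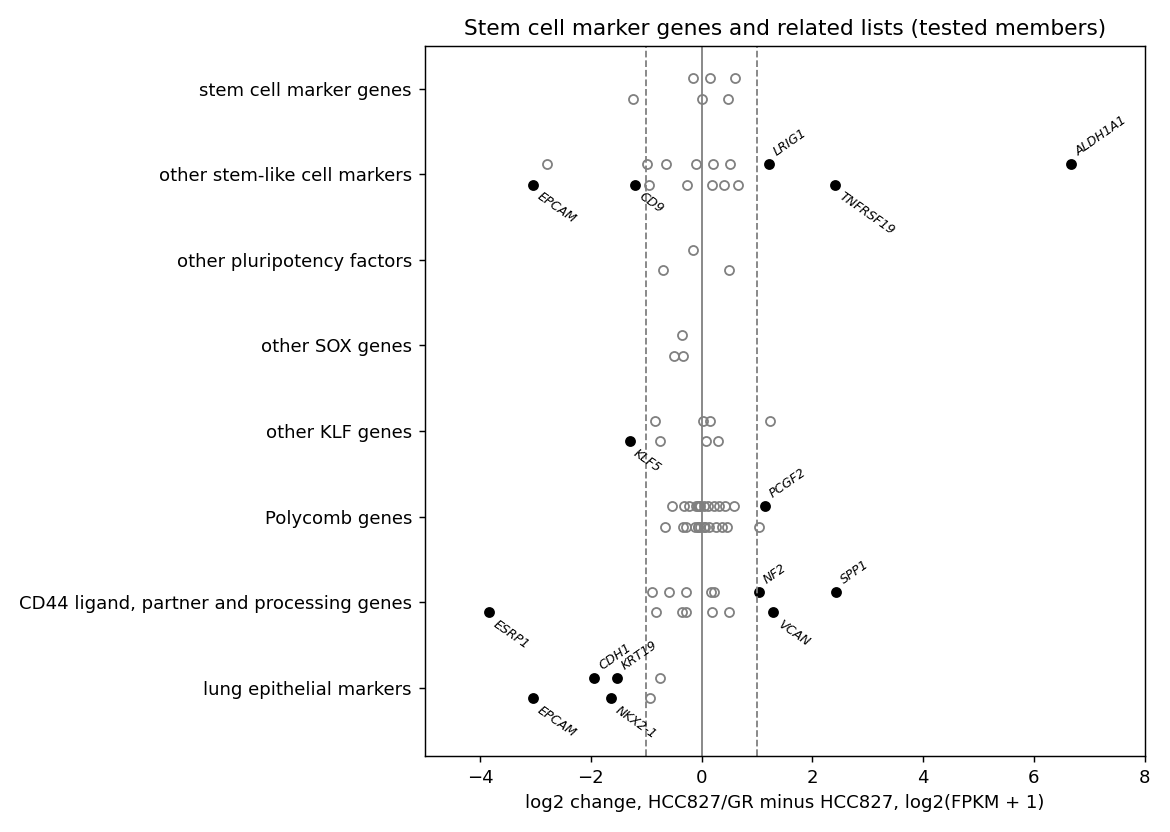
Log2 change between HCC827/GR and HCC827 for the tested members of the stem cell marker genes and 7 related lists, where each point is a gene and filled, named points passed a 2-fold change and an adjusted p under 0.05. The 6 stem cell marker genes include no filled point, and ALDH1A1 (6.68) and ESRP1 (-3.83) lie farthest out.

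Markers of the labelled cell type moved with the groups. In the list of 8 lung epithelial markers, 6 were tested and 2, KRT7 and NAPSA, were not listed, and 4 of the 6 were called lower, namely EPCAM, CDH1, NKX2-1 and KRT19, where 3.97% of all entries were. All 6 were lower in every HCC827/GR library than in both HCC827 libraries, as were 23.4% of all entries. The adjusted p of CDH1 and NKX2-1 was above 0.05 without either HCC827 library (0.0798 and 0.0550, and 0.0820 and 0.0639), and that of KRT19 without HCC827 replicate 2 (0.0544) or HCC827/GR replicate 1 (0.0525). KRT18, a keratin of simple epithelia, had 425.03 and 549.98 FPKM in HCC827 cells and 269.7, 277.6 and 218.85 FPKM in HCC827/GR cells, and fell by 0.93 on the log2 scale (adjusted p = 0.0413 from limma, above 0.05 in Ballgown's model), less than 2-fold. Its partner KRT8 had 231.8 and 304.3 FPKM against 172.2, 177.8 and 127.3 FPKM, a log2 change of -0.75 (adjusted p = 0.101 from limma). The summed FPKM of the list was 1068 and 1186 in HCC827 cells and 543.8, 573.4 and 443.1 in HCC827/GR cells, with KRT18 as its most abundant gene. The 4 immune markers listed summed to 1.45 and 1.33 FPKM in HCC827 cells and to 0.334, 0.128 and 0.138 FPKM in HCC827/GR cells. CD79A was the most abundant in HCC827 cells, with 1.08 and 1.03 FPKM against 0.147, 0.0245 and 0.0573 FPKM in HCC827/GR cells, and PTPRC (CD45) was at 0.0228 FPKM or less throughout. The 5 fibroblast markers summed to 1.15 FPKM or less in every library, with COL1A1 as the most abundant. PDGFRB had 0.0078 and 0.0147 FPKM in HCC827 cells and 0.278, 0.184 and 0.184 FPKM in HCC827/GR cells, and LUM went the other way, from 0.0930 and 0.257 FPKM to 0.0255 FPKM or less, both without overlap and below the filter, so not tested. DCN was at 0.0259 FPKM or less. Endothelial markers summed to 4.44 and 3.38 FPKM in HCC827 cells and to 0.0333 FPKM or less in HCC827/GR cells. Their value came from an assembled PECAM1 entry that has no Ensembl transcript and passed the filter through HCC827 cells alone. VWF and CDH5 were at 0.0749 FPKM or less throughout. The part of these shifts in the levels of the stem cell marker genes was not tested. MKI67, the proliferation marker Ki67, had 20.3 and 24.2 FPKM in HCC827 cells and 17.3, 10.1 and 16.2 FPKM in HCC827/GR cells, a log2 change of -0.61 (adjusted p = 0.213 from limma).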

How the data were processed

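RNA from 3 HCC827/GR and 2 HCC827 libraries was examined through the FPKM values that the authors deposited. According to the methods, Cutadapt removed reads that held adapters or low-quality or undetermined bases. By the same account TopHat2 and Bowtie2 mapped the others, and transcript assembly and FPKM came from StringTie and Ballgown. Versions are not given in the sources used here. The submitters' processing notes name hg18, whereas 135164 of the 135299 Ensembl transcript identifiers in the table were found in GENCODE release 29 (GRCh38), which gave positions and exons. The sample descriptions speak of a small-RNA library and the methods of an mRNA library. A further 1 FPKM column matched no sample and was left out.

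No value was rescaled. Entries that reached a mean of 0.5 FPKM were tested on log2(FPKM + 1) with limma 3.58.1 in R 4.3.3 (eBayes with a trend, two-sided), and p-values were adjusted by Benjamini-Hochberg over all entries tested. Calls needed a 2-fold change in either direction and a p under 0.05. On simulated data with 16189 entries, limma called 91 of 111 genes changed by 1.5 and 76 of 89 changed by 2 on the log2 scale at an adjusted p under 0.05, with 6 false calls. With the unadjusted p it called 106 and 85, with 108 false calls. The changed genes were drawn only from entries with a mean log2(FPKM + 1) above 1.5, with normally distributed noise of the size that limma estimated. Recovery at lower levels, or of changes as small as those of the tested members, was not simulated. For a symbol with several entries, the one with the highest mean was used. Genes of the related lists were named when they passed the fold change and the adjusted p, at most 3 in each direction per list, and others were chosen after their values were seen. A search for genes of a pattern like that of the most changed member was limited to members with an adjusted call, and there were none. Python 3.11.15 with numpy 2.4.6, pandas 2.3.3 and matplotlib 3.10.9 was used for the read estimates, promoter windows and plots. The members, lists and tests were chosen with earlier results of these data known. Alternatives changed the pseudocount (0.1), the filter (none, or 1 FPKM), the scaling (median-ratio or quantile), the model (no trend, a block for the replicate number, or that of Ballgown) or the summary (entries of a symbol summed, ratio of mean FPKM), or left out single libraries.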

Additional observations from a re-analysis of the deposited data

How the results depend on the processing

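Of the 10 genes, 0 were called higher in limma and in each alternative run, and none of the 6 tested had an adjusted p under 0.05 in any of them. KLF4 alone was called lower, except with Ballgown's model, where the count was 0, and without HCC827 replicate 3 (0 to 1 over the libraries left out). The adjusted p of KLF4 ran from 0.0826 to 0.323 and that of CD44 from 0.0729 to 0.306. The signs of the smallest changes were not stable. SOX4 ran from -0.12 to 0.41 over the libraries left out, and was -0.12 without HCC827 replicate 3 and -0.04 without HCC827/GR replicate 2. SOX9 ran from -0.20 to 0.13 over the libraries left out, was -0.10 without HCC827 replicate 3, and was -0.0095 with quantile normalization and -0.18 with Ballgown's model. The log2 ratio of CD44 to CD24 ran from -0.35 to 0.062 over the libraries left out, and was 0.06 without HCC827 replicate 3 and 0.062 without HCC827/GR replicate 1. The causes were not tested.

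In all entries, 480 were called higher and 643 lower, of which 393 and 500 had an adjusted p under 0.05. A pseudocount of 0.1 gave 860 and 1024, and the ratio of the mean FPKM gave 919 and 1201. Ballgown's model gave 392 and 468, of which 3 and 8 had an adjusted p under 0.05. Leaving out a library gave 509 to 622 higher and 554 to 744 lower, and 173 to 355 and 242 to 371 with an adjusted p under 0.05. In the related lists and cell type markers, 9 genes were called higher and 9 lower. The lower count was 14 with a pseudocount of 0.1 and with the ratio of the mean FPKM and 8 to 14 with a library left out, and the higher count was 5 with Ballgown's model and 7 to 8 with a library left out.

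With the replicate number as a block, 0 and 0 entries had an adjusted p under 0.05 in limma, where 506 and 709 passed the fold change and an unadjusted p under 0.05, and the log2 ratio of CD44 to CD24 was 0.062. No HCC827 library has the number of HCC827/GR replicate 1, so the block takes that library out of the comparison. The ratio therefore equals that without it, and little is left to estimate the spread from. With 0 of all entries passing, losing an adjusted call with the block says little about single genes. Deviations from the group means of same-numbered libraries correlated at 0.033 and 0.015 across entries. The 2 HCC827 libraries deviate from their mean as mirror images, so pairs of unlike number gave -0.033 and -0.015. Whether same-numbered libraries were handled together cannot be decided from these values. All 15 genes of these lists with an adjusted call lost it with the block and with Ballgown's model, and kept their direction in every alternative, except that PECAM1, at 0 in HCC827/GR cells, has no ratio of the mean FPKM. Without HCC827 replicate 2, 10 of the 15 lost it, without HCC827 replicate 3, 8, without HCC827/GR replicate 1, 7, and without HCC827/GR replicate 2 or 3, 2 each. With no filter on low values, 3 lost it. TNFRSF19, LRIG1, ESRP1 and PECAM1, among the 15, passed the filter through a single group. Low depth limits SOX2, at about 8.0 to 55.0 reads, and PROM1, at about a single read, and no scaling moved the median of all entries by over 0.1.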

Other observations

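MSI1, an RNA-binding protein of neural and epithelial progenitors, was in the list of other stem-like cell markers but stayed below the filter. It had 0.0715 and 0.106 FPKM in HCC827 cells and 0.623, 0.691 and 0.610 FPKM in HCC827/GR cells, without overlap between the groups. MYCL, in the list of pluripotency factors and also below the filter, had 0.232 and 0.594 FPKM in HCC827 cells and 0.112, 0.0194 and 0.0192 FPKM in HCC827/GR cells. Both were chosen after their values were seen and neither was tested.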
